A study of Mus musculus with 12 samples.

Results

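The effect of the combined Tet2-/-Flt3ITD genotype on gene counts was compared between 2 sorted mouse bone marrow populations, LSK and GMP. The quantity described is an interaction: the log2 difference of Tet2-/-Flt3ITD (T2F3 in the sample names) from wild type (WT) in LSK, minus the same log2 difference in GMP, called here the difference between the effects. It is positive where the genotype moved a gene further up in LSK than in GMP, and negative where it did the reverse. All 12 libraries entered, 3 in each of the groups WT LSK, T2F3 LSK, WT GMP and T2F3 GMP, and 16042 of the 21497 deposited gene entries passed a filter on low counts and were tested. All groups were C57BL/6 with a donor age of 0.35 years. The WT groups carried neither allele, and the T2F3 groups carried both together, so that the shares of Tet2 loss and of Flt3ITD cannot be told apart. The labels name no Cre driver and no strain of origin for either allele. They do not state outright that each library came from its own animal, and p-values reflect how far these libraries scatter, which may be technical. In these bulk samples, fewer cells of a type and less RNA per cell cannot be told apart.

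LSK stands for lineage-negative marrow cells that bear Sca-1 and Kit, the fraction that holds the blood stem cells and multipotent progenitors. GMP are granulocyte-macrophage progenitors, descendants of that fraction that are committed to neutrophils and monocytes and that fill their granules with proteases and peroxidase. Tet2 is a dioxygenase that turns methylcytosine of DNA into oxidised forms, and its loss is known to favour self-renewal and myeloid output. Flt3 encodes a receptor tyrosine kinase of early progenitors, and its internal tandem duplication (ITD) signals without ligand, in large part through STAT5 and RAS to ERK.

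The protocol in the labels writes both gates as Sca-1-negative, which goes against the usual meaning of LSK. The transcript of Ly6a, the Sca-1 gene, stood at 26.8, 17.9 and 23.9 CPM (counts scaled to the library's size) in WT LSK and, in T2F3 LSK, at 46.6, 24.6 and 11.3, against 3.58, 1.52 and 1.57 in WT GMP and, in T2F3 GMP, 6.46, 3.27 and 2.71. All 6 LSK libraries were above all 6 GMP libraries, as the name LSK implies. The summed level of 7 LSK markers was 627 to 952 CPM in WT LSK, 172 to 246 CPM in T2F3 LSK, 39.8 to 62.5 CPM in WT GMP and 36.9 to 40.8 CPM in T2F3 GMP. The summed level of 7 GMP markers was 1792 to 2895 CPM in WT LSK, 3530 to 5403 CPM in T2F3 LSK, 21094 to 54400 CPM in WT GMP and 9727 to 20316 CPM in T2F3 GMP. The markers therefore lay closer together between LSK and GMP in T2F3 than in WT. Totals were 13316474 to 23536258 counts per library. The WT replicate 1 and T2F3 replicate 1 pairs had counts in fewer entries (71.2% to 80.8%) than the other 8 libraries (83.7% to 89.8%), and the counts below are also given without them. T2F3 LSK replicate 3 stood apart in MHC class II markers (371 CPM summed, against 6583 and 6694 CPM in the other two).

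LSK and GMP differed in many genes in WT and in few in T2F3. In WT, 2100 genes (13.1% of those tested) were called between the populations at an adjusted p under 0.05 in edgeR's quasi-likelihood test, 1182 higher in LSK and 918 higher in GMP. In T2F3, 156 genes (0.972%) were called, 112 higher in LSK and 44 higher in GMP. Of these, 145 were called in both genotypes, all in the same direction, which is 6.91% of the WT calls and 93.0% of the T2F3 calls. The median size of the log2 difference between LSK and GMP was 0.59 in WT and 0.25 in T2F3, and 12195 genes, 76.0% of those tested, had the smaller difference in T2F3. The 2 counts come from different libraries and their difference has no test of its own. The counts were 2354 and 194 with the sample name shared by an LSK and a GMP library as a replicate block, 1296 and 413 without both WT replicate 1 libraries, and 1768 and 11 without both T2F3 replicate 1 libraries. Under the other settings WT gave 974 to 3225 genes and T2F3 gave 0 to 561.

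**Figure D1:**
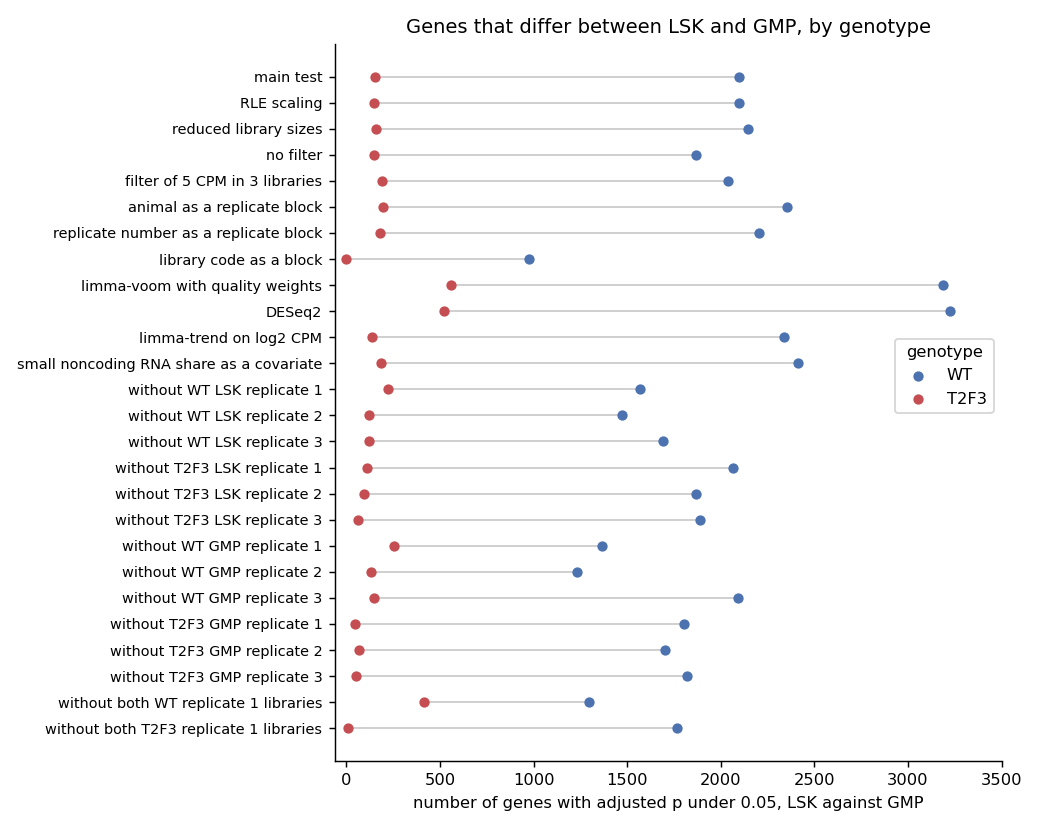
Number of genes called between LSK and GMP at an adjusted p under 0.05 (horizontal axis), for WT (blue) and T2F3 (red), in the main test (2100 and 156 genes) and in each alternative (rows). In every row the WT point lies to the right of the T2F3 point.

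The interaction itself passed the test for 4 genes, 0.0249% of those tested, and all 4 were higher: Mcpt8, Enah, Cers6 and Sema4a. None was lower. At an unadjusted p under 0.05 there were 1519 genes (9.47%), 796 higher (4.96%) and 723 lower (4.51%), and limma-voom called 11 higher and 12 lower, DESeq2 75 higher and 116 lower, and limma-trend none. Of the 4 called genes, 1 (Mcpt8) had effects of opposite sign in the populations and 3 had the larger effect in LSK. Of the 1519 genes, 1093 had fitted effects of opposite sign, 317 the larger effect in LSK and 109 the larger effect in GMP, as a description only, since a large difference selects opposed signs. In 1451 of the 1519 (95.5%) the distance between LSK and GMP was smaller in T2F3, against 76.0% of all tested genes. The interaction is also the LSK minus GMP difference in T2F3 minus that in WT. Choosing genes by it favours this outcome where WT distances are larger, so the share is a description only. With the sample name as a replicate block, edgeR called 0 genes (1858 at an unadjusted p under 0.05). The count was 1 (Mcpt8) without both WT replicate 1 libraries and 0 without both T2F3 replicate 1 libraries. Leaving out 1 library gave 10 calls without WT GMP replicate 3, 1 call without WT LSK replicate 1, WT LSK replicate 3 or T2F3 GMP replicate 3, and 0 without any of the other 8.

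Each population can also be read by whether the genotypes overlap. In 145 genes (0.904%) the 3 T2F3 libraries lay wholly on one side of the 3 WT libraries in LSK and wholly on the other side in GMP. Of these, 55 (0.343%) were higher in T2F3 LSK and lower in T2F3 GMP, and 90 (0.561%) the reverse. In 1154 genes (7.19%) the genotypes were apart in the same direction in both, 583 higher (3.63%) and 571 lower (3.56%). Both effects were called in the same direction in 107 genes (0.667%) and in opposed directions in 2 (0.0125%), Mcpt8 and Gprc5b.

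Mcpt8, a granule protease of basophils, was the only gene with opposed effects among those called for the interaction. It stood at 1.45, 4.09 and 7.39 CPM in WT LSK against 23.9, 15.3 and 32.1 CPM in T2F3 LSK. In GMP it stood at 102, 119 and 111 CPM in WT and 21.2, 24.2 and 28.9 CPM in T2F3. The genotypes did not overlap in either population, and the T2F3 libraries of LSK and GMP lay in one range between the 2 WT groups. Mcpt8 rose 5.52-fold in LSK (adjusted p = 0.0105) and fell 4.47-fold in GMP (adjusted p = 0.0323). The difference between the effects was 4.62 ± 0.62 (SE) on the log2 scale (adjusted p = 0.0389), and 4.78 ± 0.55 with the replicate block (adjusted p = 0.0529). It lay between 4.22 and 5.22 over 25 alternatives, 12 of which called it. The summed level of 5 mast cell and basophil markers, of which Mcpt8 is 1, was 12.3 to 54.3 CPM in WT LSK, 17.9 to 36.6 CPM in T2F3 LSK, 646 to 908 CPM in WT GMP and 40.2 to 53.8 CPM in T2F3 GMP. Mcpt8 itself made up most of this sum in T2F3 LSK (15.3 to 32.1 CPM), against 1.45 to 7.39 CPM in WT LSK. Averaged over libraries, the rest of the sum was therefore lower in T2F3 LSK than in WT LSK, while Mcpt8 was higher. The sums do not show how far each of the other markers moved. Fcer1a was at 0 in all T2F3 LSK libraries, and the part of mast cells and basophils in the Mcpt8 result was not tested.

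In the RefSeq annotation (GRCm38.p6) the next protein-coding gene after Mcpt8 on chromosome 14 is Ctsg, the gene of the neutrophil protease cathepsin G. Because both neighbours rose in LSK, the 300 bases around their starts (250 before, 50 after) are shown, at chr14:56085148-56085447 and chr14:56102525-56102824, both on the minus strand and written 5′ to 3′. Capitals mark the RUNX core TGTGGT and the PU.1-type ETS core GAGGAA on either strand, 2 motifs of granule gene regulators.
Mcpt8: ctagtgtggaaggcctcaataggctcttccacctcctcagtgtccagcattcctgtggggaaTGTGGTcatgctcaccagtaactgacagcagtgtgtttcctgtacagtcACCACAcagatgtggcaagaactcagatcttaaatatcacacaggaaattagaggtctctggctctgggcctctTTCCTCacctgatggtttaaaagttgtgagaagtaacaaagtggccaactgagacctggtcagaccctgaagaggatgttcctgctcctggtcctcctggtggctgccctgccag
Ctsg: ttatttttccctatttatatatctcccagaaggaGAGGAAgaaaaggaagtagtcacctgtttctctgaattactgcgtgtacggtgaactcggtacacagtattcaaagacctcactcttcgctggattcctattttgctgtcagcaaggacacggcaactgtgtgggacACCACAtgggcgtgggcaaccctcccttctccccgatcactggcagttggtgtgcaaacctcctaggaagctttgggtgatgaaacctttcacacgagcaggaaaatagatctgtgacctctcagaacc
Mcpt8 holds 2 matches to TGTGGT and 1 to GAGGAA, and Ctsg 1 of each. Of 32851 promoters of this length, 16.8% hold TGTGGT and 28.3% hold GAGGAA, and a match is a description of these letters only.

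Enah, an actin regulator of the Ena/VASP family, rose in both populations and further in LSK. It stood at 0.264, 0.336 and 0.148 CPM in WT LSK, a sum of 12 counts that lies near the floor of 0.168 to 0.222 CPM which 3 counts give in these libraries. In T2F3 LSK it stood at 38.2, 45.6 and 74 CPM. In GMP it was at 1.73, 2.56 and 1.51 CPM in WT and 17.4, 23.5 and 24.9 CPM in T2F3. No WT library overlapped a T2F3 library, and the order of the populations turned over: LSK was below GMP in WT and above it in T2F3. The rise was 202-fold in LSK (adjusted p = 5.25e-06) and 11.2-fold in GMP (adjusted p = 0.000952), a difference between the effects of 4.16 ± 0.55 (adjusted p = 0.0389; 0.0529 with the replicate block).

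Cers6, a ceramide synthase, was at 49.3, 53.5 and 48.4 CPM in WT LSK against 182, 228 and 256 CPM in T2F3 LSK. In GMP it was at 212, 239 and 209 CPM in WT and 258, 231 and 312 CPM in T2F3. LSK kept the genotypes apart and GMP did not, and 2 of the 3 T2F3 LSK libraries lay in the range of GMP, with replicate 1 below it. It rose 4.41-fold in LSK (adjusted p = 0.00016), with a log2 difference of 0.28 ± 0.18 in GMP (adjusted p = 0.577). The difference between the effects was 1.86 ± 0.26 (adjusted p = 0.047; 0.0529 with the replicate block).

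Sema4a, a membrane semaphorin of myeloid cells, followed the same pattern. It was at 2.97, 4.2 and 6.28 CPM in WT LSK against 52.9, 78 and 49.4 CPM in T2F3 LSK. GMP held 62.2, 44.5 and 35.7 CPM in WT and 57.1, 76.3 and 91.6 CPM in T2F3. T2F3 LSK lay above WT LSK throughout, and the GMP genotypes overlapped. Sema4a rose 13.4-fold in LSK (adjusted p = 0.000184), and its log2 difference in GMP was 0.66 ± 0.31 (adjusted p = 0.369). The difference between the effects was 3.09 ± 0.45 (adjusted p = 0.047; 0.109 with the replicate block). All 4 called genes stayed positive in all 25 alternatives, Enah between 3.61 and 4.45, Cers6 between 1.75 and 2.00 and Sema4a between 2.62 and 3.45, and they were called in 8, 9 and 8 of them.

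**Figure D2:**
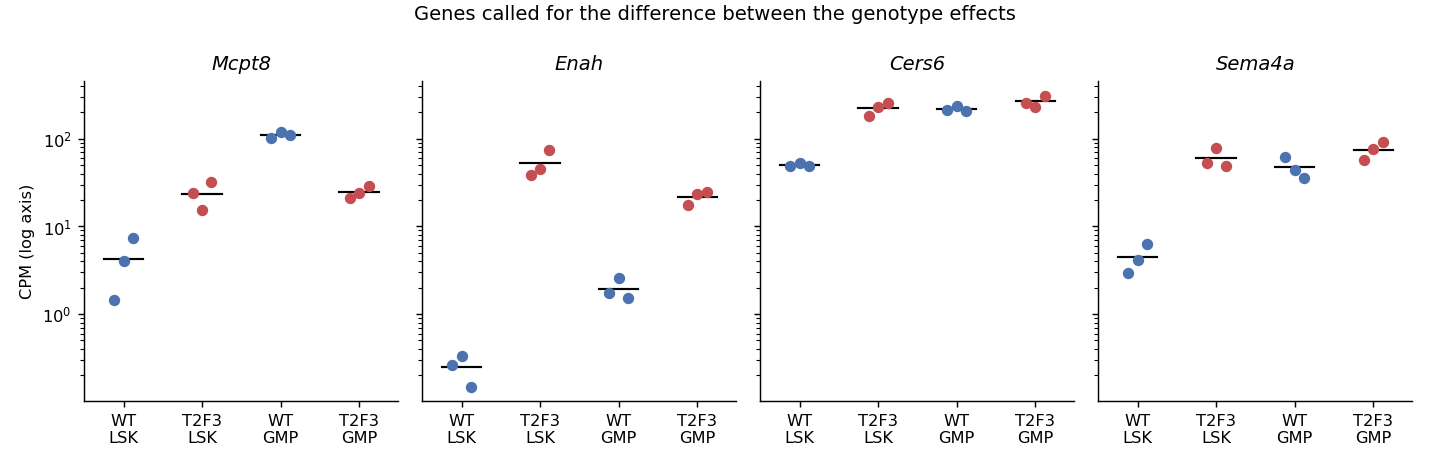
CPM on a log axis for the 4 called genes, 1 point per library and a bar at the group mean, WT in blue and T2F3 in red. T2F3 LSK lies above WT LSK in each gene, while T2F3 GMP lies below WT GMP for Mcpt8 (21.2 to 28.9 against 102 to 119 CPM).

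The next genes by p with a positive difference did not pass the test and are given as values. Arsb, a lysosomal sulfatase, was at 76, 66 and 56.2 CPM in WT LSK against 106, 147 and 93.2 CPM in T2F3 LSK, and at 332, 256 and 262 CPM in WT GMP against 98.4, 102 and 151 CPM in T2F3 GMP. Its genotypes were apart in both populations in opposite directions, it fell 2.42-fold in GMP (adjusted p = 0.0236), and the difference between the effects was 2.08 ± 0.33 (adjusted p = 0.0611). Ctsg was at 99.8, 132 and 119.8 CPM in WT LSK against 1131, 426 and 631 CPM in T2F3 LSK, and at 3307, 1825 and 1345 CPM in WT GMP against 1431, 1010 and 1295 CPM in T2F3 GMP. It rose 6.23-fold in LSK (adjusted p = 0.00471) and the genotypes overlapped in GMP. Its difference between the effects was 3.43 ± 0.56 (adjusted p = 0.0611). Cst7, the cathepsin inhibitor cystatin F, had a difference of 2.55 ± 0.47 (adjusted p = 0.102), and Pdia5, a disulfide isomerase of the endoplasmic reticulum, one of 1.89 ± 0.35 (adjusted p = 0.102). Both rose in LSK, 3.08-fold (adjusted p = 0.0186) and 3.26-fold (adjusted p = 0.00401). Gas7, a cytoskeletal adaptor, rose 12.3-fold in LSK (adjusted p = 0.000255), with a difference of 2.60 ± 0.45 (adjusted p = 0.077). Stxbp6, which binds SNARE proteins, rose in both, 24.2-fold in LSK (adjusted p = 0.000111) and 3.85-fold in GMP (adjusted p = 0.0186), with a difference of 2.65 ± 0.49 (adjusted p = 0.102).

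On the negative side no gene passed, and Itsn1, a scaffold of endocytosis, had the smallest p. It was at 59.5, 76.9 and 49.1 CPM in WT LSK against 14.8, 29.8 and 19.7 CPM in T2F3 LSK, and at 7.39, 9.72 and 9.6 CPM in WT GMP against 17.2, 24.7 and 24 CPM in T2F3 GMP. In both populations T2F3 and WT did not overlap, in opposite directions, and the T2F3 libraries of LSK and GMP shared a range. Itsn1 fell 2.88-fold in LSK (adjusted p = 0.0149), and its log2 difference in GMP was 1.30 ± 0.30 (adjusted p = 0.0589). The difference between the effects was -2.83 ± 0.42 (adjusted p = 0.0513), and 8 of 25 alternatives called it. Gprc5b, an orphan receptor, lay outside the rule for named genes because its GMP mean was under 5 CPM, and is named after its values were seen as the other gene with both effects called in opposed directions. It was at 25.4, 29.96 and 26.1 CPM in WT LSK against 5.39, 7.3 and 7.45 CPM in T2F3 LSK, and at 0.655, 0.651 and 0.64 CPM in WT GMP against 4.5, 6.39 and 1.35 CPM in T2F3 GMP. It fell 4.04-fold in LSK (adjusted p = 0.033) and rose 6.24-fold in GMP (adjusted p = 0.0319), with a difference of -4.65 ± 0.71 (adjusted p = 0.052).

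Tns1, a focal adhesion protein, was at 421, 327 and 342 CPM in WT LSK against 174, 289.6 and 204 CPM in T2F3 LSK, and at 39.9, 44.6 and 98.4 CPM in WT GMP against 284, 268 and 212 CPM in T2F3 GMP. It rose 4.18-fold in GMP (adjusted p = 0.0107), its genotypes were apart in opposite directions, and the difference was -2.77 ± 0.46 (adjusted p = 0.0611). Lpp, another focal adhesion protein, rose 2.66-fold in GMP (adjusted p = 0.0263), with a difference of -1.79 ± 0.37 (adjusted p = 0.161), and Card6 rose 6.45-fold in GMP (adjusted p = 0.0418), with a difference of -3.84 ± 0.77 (adjusted p = 0.144). In LSK, falls were called for the zinc finger factor Zfhx3 (2.38-fold, adjusted p = 0.033), for Rasal3, which switches off RAS (2.2-fold, adjusted p = 0.0026), and for Ulk1, the kinase that starts autophagy (2.1-fold, adjusted p = 0.0086). Their differences between the effects were -2.40 ± 0.43 (adjusted p = 0.0923), -1.15 ± 0.21 (adjusted p = 0.102) and -1.35 ± 0.26 (adjusted p = 0.116).

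Rasal3 differed between genotypes in LSK: it was at 155, 143 and 152 CPM in WT LSK against 63.5, 72 and 69.1 CPM in T2F3 LSK, and at 61.7, 58 and 66.2 CPM in WT GMP against 65, 63.9 and 59.1 CPM in T2F3 GMP. Only WT LSK stood apart. Socs2, a feedback inhibitor of cytokine signalling, Gcsam and Mamdc2 differed in that WT GMP was at or near 0. Socs2 was at 1.58, 1.57 and 0.961 CPM in WT LSK against 112, 127 and 147 CPM in T2F3 LSK, and at 0, 0 and 0.0582 CPM in WT GMP against 54.5, 90.8 and 49.7 CPM in T2F3 GMP. It rose 92.9-fold in LSK (adjusted p = 4.21e-06), and the GMP ratio from 1 WT count was 3817 (95% counting interval 685 to 150781). Gcsam rose 8.09-fold in LSK (adjusted p = 0.0285) and was at least 57.2-fold higher in T2F3 GMP, where WT held 0 counts against a floor of 3 counts per library. Mamdc2 had a GMP ratio of 188 (interval 51.9 to 1561, from 2 WT counts), and its genotypes overlapped in LSK. How far the effects of these 3 genes differ between populations depends on that floor.

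**Figure D3:**
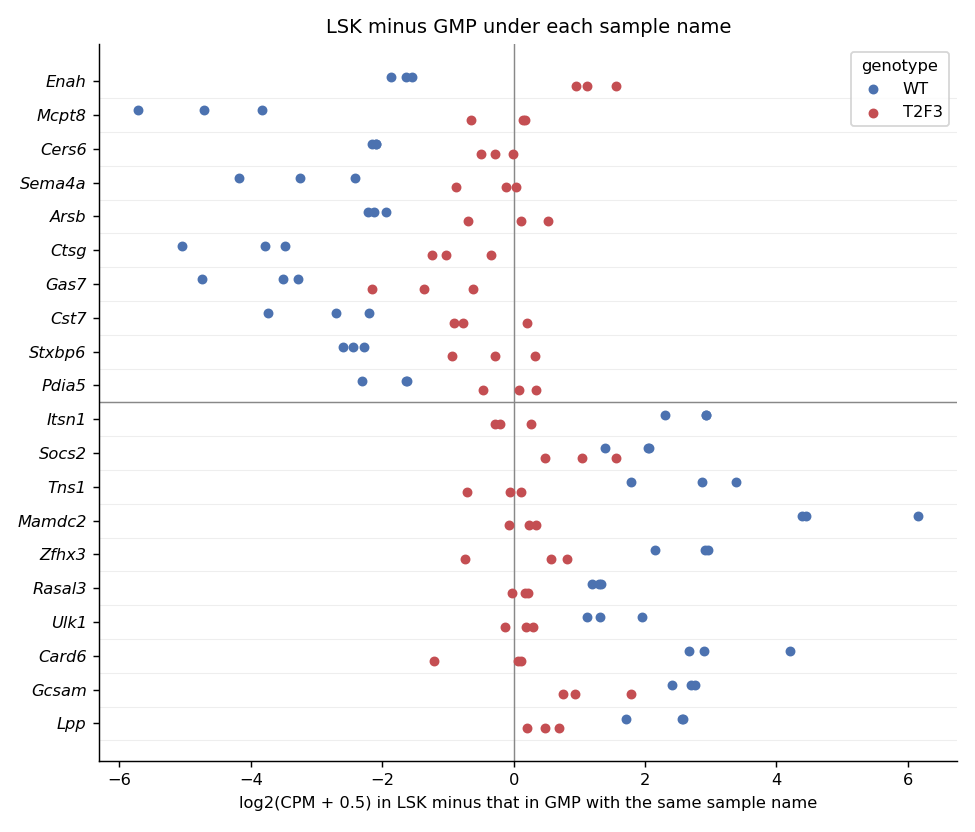
Difference in log2(CPM + 0.5) between the LSK and the GMP library that share a sample name (horizontal axis), 3 WT (blue) and 3 T2F3 (red) points per gene, with genes of positive difference between the effects above the line and of negative difference below it. In WT the points lie away from 0 on one side, and in T2F3 most lie nearer 0, as for Mcpt8 (-5.71, -4.71 and -3.83 in WT, 0.17, -0.65 and 0.15 in T2F3).

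The targeted genes and the genes of the sort came next. Tet2 stood at 89, 79.8 and 79 CPM in WT LSK against 42, 89.1 and 40.9 CPM in T2F3 LSK, and at 107, 138 and 112 CPM in WT GMP against 96.3, 88.9 and 66.2 CPM in T2F3 GMP, with a difference between the effects of -0.02 ± 0.39 (95% interval -0.93 to 0.89). The labels do not say which part of Tet2 was deleted, so whole-gene counts check nothing. Flt3 counts stood at 433, 374 and 463 CPM in WT LSK against 257, 329.6 and 188 CPM in T2F3 LSK, but at 20.8, 14.4 and 50.8 CPM in WT GMP against 116, 166 and 72.3 CPM in T2F3 GMP. Its genotypes were apart in opposite directions. Flt3 rose 4.12-fold in GMP (adjusted p = 0.0418), had a log2 difference of -0.71 ± 0.41 in LSK (adjusted p = 0.349) and a difference between the effects of -2.76 ± 0.59 (adjusted p = 0.163). It was called by limma-voom, by DESeq2 and without WT GMP replicate 3, the highest of the WT GMP libraries.

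Kit, the receptor used in both gates, fell in both, 3.31-fold in LSK (adjusted p = 0.0015) and 1.97-fold in GMP (adjusted p = 0.0431), with a difference of -0.75 ± 0.29 (adjusted p = 0.466). Fcgr3, an Fc receptor of the GMP gate, was at 1.19, 3.19 and 3.62 CPM in WT LSK against 3.65, 3.71 and 5.56 CPM in T2F3 LSK, and at 160, 115 and 94.5 CPM in WT GMP against 40.4, 24.3 and 75.9 CPM in T2F3 GMP, with a difference of 2.09 ± 0.62 (adjusted p = 0.343). No genotypes overlapped, with Fcgr3 higher in T2F3 LSK and lower in T2F3 GMP. Cd34 gave 0.16 ± 0.30 (95% interval -0.53 to 0.86) and Ly6a gave -0.63 ± 0.75 (-2.36 to 1.10).

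**Figure D4:**
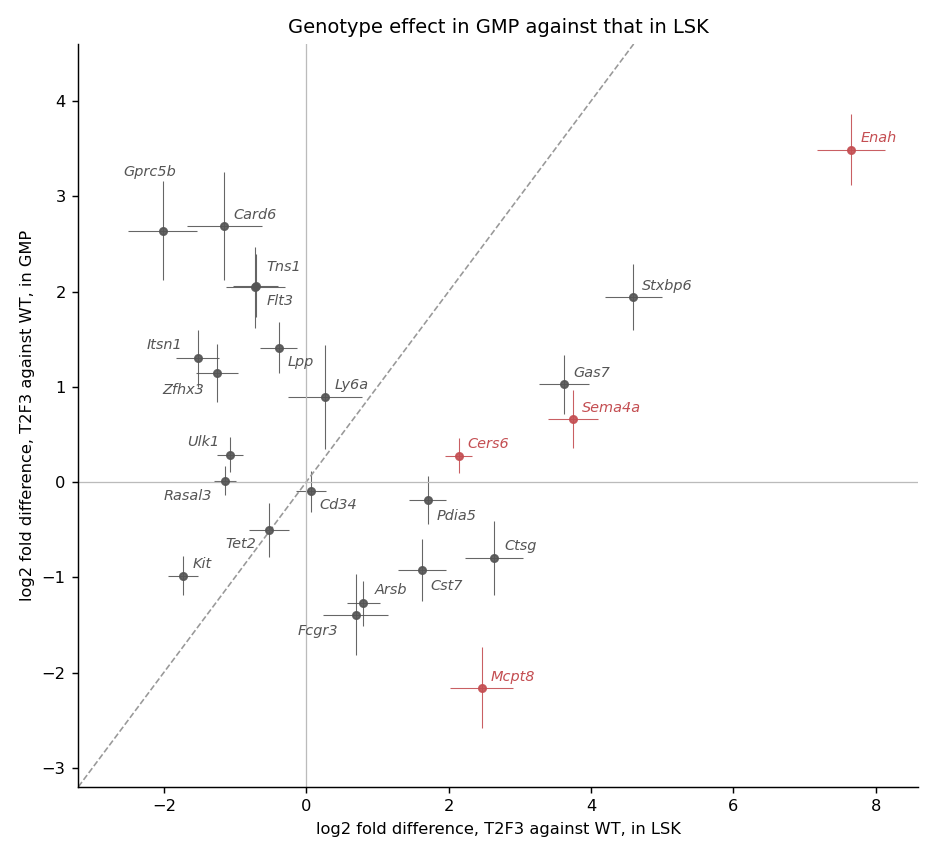
Log2 difference of T2F3 from WT in GMP (vertical axis) against that in LSK (horizontal axis), with bars of 1 SE, for the genes of the targeting, the sort and the smallest p for the interaction (called genes in red). Points off the dashed line of equal effects have unequal fitted effects, and the difference passed the test only for the called genes. Those at the upper left and lower right have opposed fitted effects, as Mcpt8 (2.47 in LSK, -2.16 in GMP) and Gprc5b (-2.01 and 2.64).

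Gene groups were read from 30 lists by the number of members at an unadjusted p under 0.05 for the interaction, beside 4.96% higher and 4.51% lower over all tested genes, where the median difference was 0.02. Among all list members only Mcpt8 was called, so these counts describe direction and carry no test of a list. The list of granulocyte-macrophage progenitor and azurophil granule genes had the highest share: 19 of 34 tested members higher (55.9%) and 1 lower, with a median difference of 1.47. In LSK 8 of them rose and 1 fell, beside 2.76% and 2.44% of all tested genes, and in GMP 0 rose and 1 fell, beside 0.679% and 0.461%. These shares are the background for the counts of risen and fallen members of the lists that follow. In 5 of the 34 the genotypes were apart, higher in T2F3 LSK and lower in T2F3 GMP, against 0.343% of all genes. The count was 18 without both WT replicate 1 libraries, 15 without both T2F3 replicate 1 libraries, 21 with the replicate block and 16 to 22 when 1 library was left out. DESeq2 called 6 members and limma-voom 2, beside 191 and 23 of all 16042 tested genes.

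Genes of the proteins that fill the primary granules are given by level. Mpo, the gene of myeloperoxidase, was at 2342, 2024 and 1478 CPM in WT LSK against 3157, 2655 and 2814 CPM in T2F3 LSK, and at 35217, 25169 and 15165 CPM in WT GMP against 12607, 6712 and 11026 CPM in T2F3 GMP. The genotypes were apart in both populations, higher in T2F3 LSK and lower in T2F3 GMP, with a difference between the effects of 1.88 ± 0.59 (adjusted p = 0.356). For Elane (neutrophil elastase) the difference was 2.46 ± 0.87 (adjusted p = 0.42), with overlapping genotypes in both populations. For Prtn3 (proteinase 3) it was 2.12 ± 0.80 (adjusted p = 0.442), with overlapping genotypes in GMP. Mpo, Elane and Prtn3 are outside the rule and were added after their values were seen, as the main contents of these granules. None of them passed the test within a population. Ms4a3, a membrane protein that marks the granulocyte-monocyte lineage, was at 14.6, 11 and 9.54 CPM in WT LSK against 90.7, 25.1 and 54.9 CPM in T2F3 LSK, and at 522, 224 and 412 CPM in WT GMP against 245, 120.5 and 233 CPM in T2F3 GMP. It rose 4.85-fold in LSK (adjusted p = 0.016), with a difference of 3.23 ± 0.62 (adjusted p = 0.116). Clec12a, an inhibitory lectin of myeloid cells, rose 5.24-fold in LSK (adjusted p = 0.0011), with a difference of 1.94 ± 0.38 (adjusted p = 0.13).

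Values are also given for 3 factors that drive this lineage. Cebpa was at 137, 84.8 and 92 CPM in WT LSK against 134, 119 and 102 CPM in T2F3 LSK, and at 308, 376 and 300 CPM in WT GMP against 197, 147 and 248 CPM in T2F3 GMP, a difference of 0.91 ± 0.34 (adjusted p = 0.439). The genotypes of Cebpa overlapped in LSK and were apart in GMP. Gfi1, a repressor needed for neutrophils, gave 1.80 ± 0.59 (adjusted p = 0.386) and Spi1, the gene of PU.1, 1.15 ± 0.39 (adjusted p = 0.406). The genotypes of Gfi1 overlapped in LSK only, and those of Spi1 in both populations. All 3 factors were also added after their values were seen. None of the 3 passed the test in either population.

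Of 24 mast cell, basophil and eosinophil genes, 7 were higher (29.2%) and 1 lower, with a median difference of 1.06, and in 17 of 24 the signed difference, LSK minus GMP under a sample name, was higher in all T2F3 names than in all WT names, against 11.1% of all genes. In GMP 8 members fell, in LSK 7 fell and 2 rose, and the median log2 effect of the list was -1.76 in LSK and -2.84 in GMP. Ms4a2, the beta chain of the IgE receptor, was at 53.3, 47.3 and 77 CPM in WT GMP against 1.65, 2.75 and 3.13 CPM in T2F3 GMP, a fall of 23.4-fold (adjusted p = 0.00567), and at 0.33, 2.07 and 3.03 CPM in WT LSK against 0.836, 0.542 and 0.247 CPM in T2F3 LSK. Its genotypes overlapped in LSK, and its difference between the effects was 2.76 ± 0.88 (adjusted p = 0.36). Gata2, a factor of stem cells and mast cells that was added after its values were seen, fell 8.2-fold in LSK (adjusted p = 0.000364) and 18.5-fold in GMP (adjusted p = 4.53e-05), with a difference of 1.17 ± 0.41 (adjusted p = 0.42).

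Of 38 monocyte and macrophage genes 7 were higher and 2 lower, with a median of 1.00. The count of 7 became 17 without T2F3 LSK replicate 3, and the median ran from 0.48 to 1.44 when 1 library was left out. Of 30 later neutrophil granule genes 6 were higher (2 without WT GMP replicate 1, 3 without both WT replicate 1 libraries and 3 without both T2F3 replicate 1 libraries) and 0 lower, with a median of 0.21. The chemokine receptor Ccr2 was at 0.462, 6.22 and 5.1 CPM in WT LSK against 104, 213 and 15.1 CPM in T2F3 LSK, and at 76.2, 56.3 and 78.6 CPM in WT GMP against 119, 239 and 122 CPM in T2F3 GMP. It rose 28.1-fold in LSK (adjusted p = 0.0125), with a difference of 3.63 ± 1.12 (adjusted p = 0.356), and T2F3 LSK replicate 3 was the lowest of its group. Ly6c2, whose product marks monocytes, rose 7.47-fold in LSK (adjusted p = 0.00978), with a difference of 2.42 ± 0.68 (adjusted p = 0.318). The beta-galactoside lectin gene Lgals3 rose 129-fold in LSK from 7 WT counts (adjusted p = 0.00507), with a difference of 5.23 ± 1.31 (adjusted p = 0.247). Its T2F3 LSK libraries stood at 27.6, 30.6 and 2.63 CPM, replicate 3 again the lowest. Anxa1, the gene of annexin A1, rose 2.75-fold in LSK (adjusted p = 0.0233), with a difference of 1.91 ± 0.44 (adjusted p = 0.2). The summed level of 6 monocyte and macrophage markers was 92.7 to 118 CPM in WT LSK, 135 to 596 CPM in T2F3 LSK, 1185 to 1627 CPM in WT GMP and 1795 to 2136 CPM in T2F3 GMP, and the part of such cells in T2F3 LSK was not tested.

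**Figure D5:**
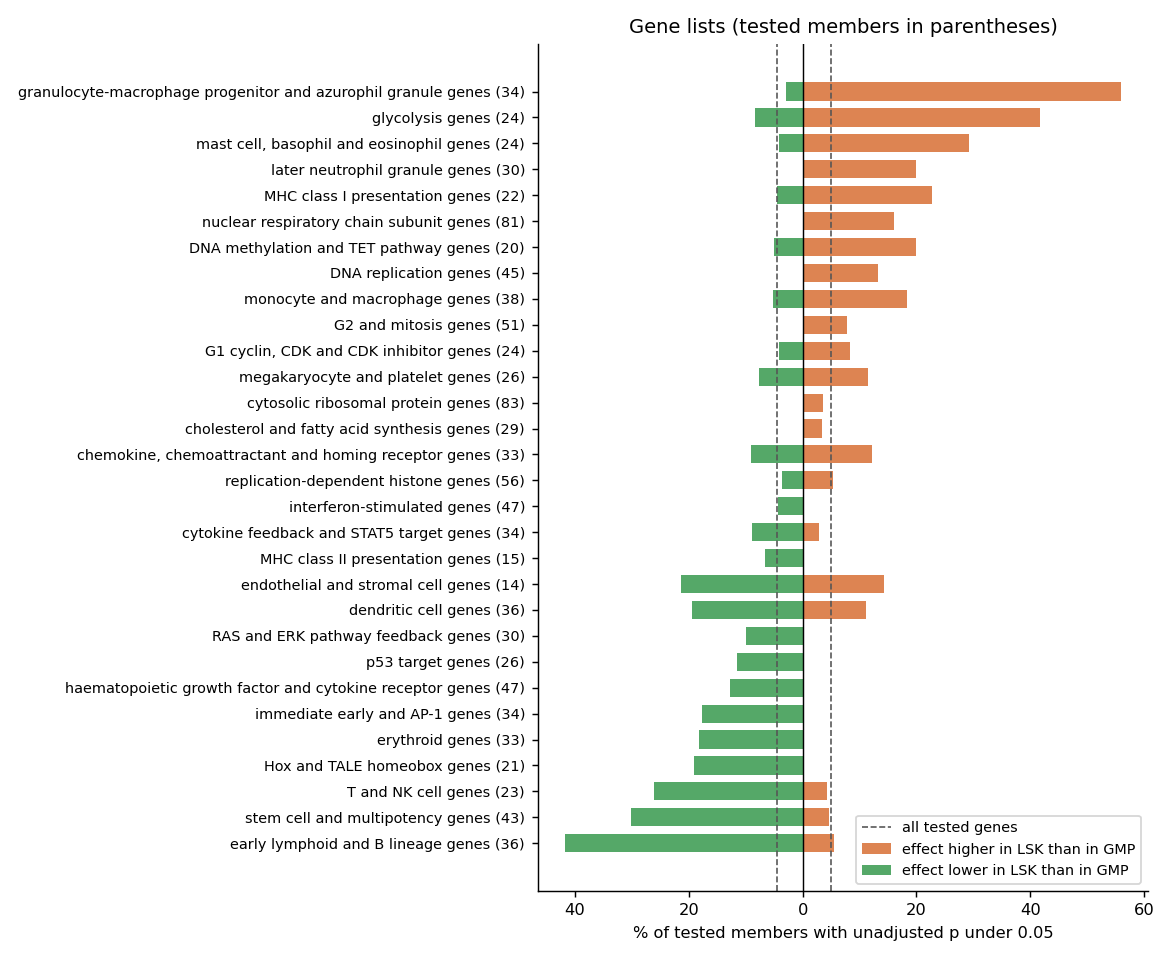
Percent of the tested members of each list (number in parentheses) with an unadjusted p under 0.05 for the difference between the effects, to the right where it is higher in LSK than in GMP and to the left where it is lower, with dashed lines at 4.96% and 4.51% for all tested genes. Granule genes (55.9%) and glycolysis genes (41.7%) reach furthest to the right, and early lymphoid genes (41.7%) and stem cell genes (30.2%) to the left.

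Stem cell and multipotency genes lay on the other side: 13 of 43 were lower (30.2%) and 2 higher, with a median difference of -1.03. In LSK 15 of them fell and 2 rose, and in GMP 4 fell and 2 rose. The count was 11 without both WT replicate 1 libraries, 8 without both T2F3 replicate 1 libraries, 18 with the replicate block and 10 to 17 when 1 library was left out. Meis1, a homeobox factor of stem cells, was at 363, 282 and 245 CPM in WT LSK against 63.9, 88.7 and 139 CPM in T2F3 LSK, and at 42.8, 24.7 and 41.6 CPM in WT GMP against 29.6, 31 and 24.6 CPM in T2F3 GMP. The genotypes were apart in LSK and overlapped in GMP. Meis1 fell 3.06-fold in LSK (adjusted p = 0.0112), with a difference of -1.26 ± 0.41 (adjusted p = 0.378). Nrip1, a nuclear receptor corepressor, fell 2.53-fold in LSK (adjusted p = 0.0414), with a difference of -1.55 ± 0.48 (adjusted p = 0.354), and Txnip, a thioredoxin inhibitor, fell 3.04-fold (adjusted p = 0.00343), with a difference of -1.51 ± 0.32 (adjusted p = 0.161). Hlf, a stem cell factor added after its values were seen, fell in both, 7.17-fold in LSK (adjusted p = 0.000958) and 2.98-fold in GMP (adjusted p = 0.0379), with a difference of -1.26 ± 0.44 (adjusted p = 0.415). Of 21 Hox and TALE homeobox genes, some of which, Meis1 among them, are also in the stem cell list, 4 were lower (2 without both T2F3 replicate 1 libraries) and 0 higher, with a median of -1.03.

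Early lymphoid and B lineage genes had the highest share on the negative side, 15 of 36 lower (41.7%) and 2 higher, with a median of -1.40. In LSK 8 fell and 0 rose, and in GMP 1 rose and 1 fell. The count was 9 without both WT replicate 1 libraries, 14 without both T2F3 replicate 1 libraries, 16 with the replicate block and 11 to 16 when 1 library was left out. DESeq2 called 5 members, beside 191 of all 16042 tested genes. Satb1, a chromatin organiser of lymphoid progenitors, was at 200.5, 175 and 243 CPM in WT LSK against 29.6, 64.1 and 21 CPM in T2F3 LSK, and at 45.4, 47.6 and 85.2 CPM in WT GMP against 47.6, 67.7 and 30.3 CPM in T2F3 GMP. Only WT LSK stood apart, with a fall of 5.39-fold in LSK (adjusted p = 0.0086) and a difference of -2.14 ± 0.57 (adjusted p = 0.279). Mef2c, a factor of lymphoid and myeloid progenitors, gave -1.45 ± 0.38 (adjusted p = 0.27), the repressor Bach2 -2.06 ± 0.59 (adjusted p = 0.324) and the E protein gene Tcf4, which the dendritic cell list holds, -1.27 ± 0.35 (adjusted p = 0.296). None of these 3 passed the test within a population.

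Dntt, the gene of terminal transferase, and Il7r, the IL-7 receptor, were added after their values were seen because they define the lymphoid branch. Dntt fell 5.36-fold in LSK (adjusted p = 0.0297), the WT libraries at 523, 192 and 439 CPM and the T2F3 libraries at 61.2, 41.6 and 112 CPM, and was under 1 CPM in all 6 GMP libraries. Il7r was at 26.3, 5.04 and 18.9 CPM in WT LSK against 0, 1.17 and 0 CPM in T2F3 LSK (adjusted p = 0.0943), and also under 1 CPM in all GMP libraries. For genes like these, near the floor in both genotypes of GMP, the difference between the effects rests on the LSK libraries. The summed level of 9 B lineage markers was 383 to 3149 CPM in WT LSK, 168 to 402 CPM in T2F3 LSK, 159 to 285 CPM in WT GMP and 216 to 419 CPM in T2F3 GMP. The upper end in WT LSK rests on 1 library, and the middle library was at 518.5 CPM. Pax5 was at 0 in T2F3 LSK and T2F3 GMP, and the part of B lineage cells was not tested. Of 23 T and NK cell genes 6 were lower and 1 higher, and the count of 6 was 2 without WT LSK replicate 1 or T2F3 GMP replicate 3.

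Of 33 erythroid genes 20 fell and 1 rose in LSK, and 6 fell and 0 rose in GMP, beside 2.44% and 0.461% of all genes that fell. For the interaction 6 were lower and 0 higher, with a median difference of -1.08, and in 17 of 33 the signed difference, LSK minus GMP, was lower in all T2F3 names than in all WT names, against 10.6% of all genes. Gata1, the main erythroid and megakaryocyte factor, was at 62.1, 26.6 and 41.9 CPM in WT LSK against 0.608, 0.709 and 0.617 CPM in T2F3 LSK, and at 1.43, 8.89 and 13.1 CPM in WT GMP against 0.127, 0.371 and 1.16 CPM in T2F3 GMP. It fell 66.7-fold in LSK (adjusted p = 0.00342) and 13.5-fold in GMP (adjusted p = 0.0431), with a difference of -2.31 ± 1.07 (adjusted p = 0.528). Its partner Zfpm1 fell 7.87-fold and 3.53-fold (adjusted p = 0.000257 and 0.00935), with a difference of -1.16 ± 0.38 (adjusted p = 0.393). Sptb, the gene of erythroid beta spectrin, fell 44.8-fold in LSK (adjusted p = 0.00684), with a difference of -3.57 ± 1.12 (adjusted p = 0.357). Megakaryocyte genes were split, 3 of 26 higher and 2 lower. The repressor Gfi1b fell 5.8-fold in LSK (adjusted p = 0.0306) and 35.5-fold in GMP, to 9 counts (adjusted p = 0.00751), with a difference of 2.62 ± 0.93 (adjusted p = 0.422). Mmrn1, a platelet granule protein, fell 25.3-fold in LSK (adjusted p = 0.00282) and was at least 14.5-fold lower in T2F3 GMP, with 0 counts.

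Targets of the pathway downstream of Flt3ITD are given next. Of 34 cytokine feedback and STAT5 target genes 1 was higher (2.94%) and 3 lower (8.82%) for the interaction, with a median of -0.13. Over all tested genes these shares were 4.96% and 4.51%. Pim1, a kinase induced by STAT5, was at 328, 372 and 354 CPM in WT LSK against 485, 588 and 628 CPM in T2F3 LSK, and at 104, 112 and 116 CPM in WT GMP against 352, 452 and 313 CPM in T2F3 GMP. The genotypes were apart in both populations. Pim1 rose 3.36-fold in GMP (adjusted p = 0.00121), its log2 difference in LSK was 0.69 ± 0.20 (adjusted p = 0.0625) and the difference between the effects was -1.06 ± 0.28 (adjusted p = 0.268). Pim2, a related kinase, had the opposite sign: it rose 3.29-fold in LSK (adjusted p = 0.0374), was at 11.4, 6.16 and 6.75 CPM in WT GMP against 9.44, 5.39 and 4.72 CPM in T2F3 GMP, and had a difference of 2.04 ± 0.59 (adjusted p = 0.332).

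Cish, a SOCS family inhibitor and a classical STAT5 target, rose in both populations. It was at 10.6, 19.2 and 17.3 CPM in WT LSK against 86.4, 109 and 153 CPM in T2F3 LSK, and at 4.71, 2.39 and 2.44 CPM in WT GMP against 43.6, 63.6 and 42.4 CPM in T2F3 GMP. The rise was 7.39-fold in LSK (adjusted p = 0.00117) and 15.7-fold in GMP (adjusted p = 0.000266), and the difference between the effects was -1.09 ± 0.47 (adjusted p = 0.513), so unequal effects were not shown. Its promoter is printed because it holds the STAT motif, at chr9:107296409-107296708 on the plus strand (RefSeq, GRCm38.p6), with the 2 matches to TTCNNNGAA, a motif that reads the same on both strands, in capitals with the bases between its ends.
Cish: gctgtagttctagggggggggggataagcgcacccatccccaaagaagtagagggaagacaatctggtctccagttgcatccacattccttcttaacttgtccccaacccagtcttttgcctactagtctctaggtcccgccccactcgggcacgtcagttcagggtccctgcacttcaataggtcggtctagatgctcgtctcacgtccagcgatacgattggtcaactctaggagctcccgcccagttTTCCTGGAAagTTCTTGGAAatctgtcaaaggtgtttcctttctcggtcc
Of the 32851 promoters, 8.30% hold this motif.

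Of 47 growth factor and cytokine receptor genes 6 were lower and 0 higher, Kit and Flt3 among them. The IL-17 receptor gene Il17ra fell 1.88-fold in LSK (adjusted p = 0.025), with a difference of -0.98 ± 0.28 (adjusted p = 0.328). Of 30 RAS and ERK feedback genes 3 were lower and 0 higher, with a median of -0.99. The count of 3 ran from 2 to 8 when 1 library was left out. Of 34 immediate early and AP-1 genes 6 were lower and 0 higher, with a median of -0.89. The count of 6 was 3 without WT LSK replicate 2, T2F3 LSK replicate 1 or 3, or T2F3 GMP replicate 2, and 11 without WT GMP replicate 2. Ier2, an immediate early gene, fell 5.05-fold in LSK (adjusted p = 0.00361), from 357, 525 and 253 CPM to 53.2, 98.5 and 72.7 CPM, and was at 172, 224 and 99 CPM in WT GMP against 95.3, 83.9 and 79.1 CPM in T2F3 GMP. Its difference was -1.40 ± 0.46 (adjusted p = 0.391). Jun, a subunit of AP-1, fell 4.47-fold in LSK (adjusted p = 0.0181), with a difference of -1.50 ± 0.60 (adjusted p = 0.483).

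Of 24 glycolysis genes 10 were higher (41.7%) and 2 lower, with a median difference of 0.57, and the count higher was 7 without both WT replicate 1 libraries, 9 without both T2F3 replicate 1 libraries and 6 to 11 when 1 library was left out, lowest without T2F3 GMP replicate 2. Pgam1, phosphoglycerate mutase, was at 55, 51.3 and 47.3 CPM in WT LSK against 158, 102 and 139 CPM in T2F3 LSK, and at 184, 169 and 183 CPM in WT GMP against 176, 160 and 224 CPM in T2F3 GMP. WT LSK was the lowest, and T2F3 LSK lay between it and both GMP groups. Pgam1 rose 2.59-fold in LSK (adjusted p = 0.00361), with a difference of 1.31 ± 0.28 (adjusted p = 0.161). Ldha, lactate dehydrogenase A, gave 0.91 ± 0.28 (adjusted p = 0.354), the hexokinase Hk3 1.02 ± 0.32 (adjusted p = 0.357) and the phosphofructokinase Pfkp 0.83 ± 0.27 (adjusted p = 0.378). In LSK 1 of the 24 rose and 2 fell, beside 2.76% and 2.44% of all genes, and 0 passed in GMP.

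Of 81 nuclear genes of the respiratory chain 13 were higher (16.0%) and 0 lower, with a median of 0.68, and 7 rose in LSK and 0 in GMP. This count was 8 without both WT replicate 1 libraries, 4 without both T2F3 replicate 1 libraries and 7 to 25 when 1 library was left out. It was 7 without T2F3 LSK replicate 1 or T2F3 GMP replicate 2, 8 without WT GMP replicate 1 or 2, and 25 without WT GMP replicate 3. Ndufa8 of complex I, Cox5a of complex IV and Sdhd of complex II rose in LSK, 2.39-fold, 2.46-fold and 2.06-fold (adjusted p = 0.0186, 0.0206 and 0.0451), with differences of 1.32 ± 0.36, 1.2 ± 0.38 and 1.26 ± 0.38 (adjusted p = 0.296, 0.361 and 0.348). Of 45 DNA replication genes 6 were higher and 0 lower, with a median of 0.44. The count of 6 was 0 without WT GMP replicate 1, 1 without WT LSK replicate 3, 2 without T2F3 GMP replicate 2 and 11 without WT GMP replicate 3. In 23 of the 45 the signed difference, LSK minus GMP, was higher in all T2F3 names than in all WT names, against 11.1% of all genes. Mcm5, a subunit of the replicative helicase, was at 389, 392 and 337 CPM in WT LSK against 482, 441 and 447 CPM in T2F3 LSK, and at 1038, 711 and 539 CPM in WT GMP against 559, 457 and 483 CPM in T2F3 GMP, a difference of 0.90 ± 0.34 (adjusted p = 0.44). The replication fork protein gene Tipin rose 3.36-fold in LSK (adjusted p = 0.00594), with a difference of 0.99 ± 0.39 (adjusted p = 0.471), and of 51 mitosis genes 4 were higher (2 without any one of WT LSK replicates 1 and 3, WT GMP replicate 1 and T2F3 GMP replicate 3), among them the spindle checkpoint kinase Bub1b, which rose 1.91-fold in LSK (adjusted p = 0.0344). Cdkn1b, the gene of the cell cycle inhibitor p27, fell 1.87-fold in LSK (adjusted p = 0.0205), from 80.9, 79.1 and 99.2 CPM to 45, 50.7 and 42.7 CPM, while GMP stood at 50.2, 37.3 and 35.6 CPM in WT and 42.7, 46.2 and 42.9 CPM in T2F3. Its difference was -1.0 ± 0.27 (adjusted p = 0.28). Of 24 G1 cyclin, CDK and CDK inhibitor genes 2 were higher and 1 lower for the interaction, with a median of 0.09. These counts ran from 0 to 3 and from 1 to 3 when 1 library was left out.

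Of 22 MHC class I presentation genes 5 were higher (22.7%) and 1 lower, and the count of 5 was 3 without WT LSK replicate 1 or WT GMP replicate 1 or 2, 2 without T2F3 GMP replicate 1 or 2, 1 without both WT replicate 1 libraries and 1 without both T2F3 replicate 1 libraries. Of 20 genes of the DNA methylation and TET pathway 4 were higher (20%) and 1 lower, and the count of 4 was 0 without T2F3 GMP replicate 2, 1 without any one of WT LSK replicate 1, T2F3 LSK replicate 1 and WT GMP replicates 1 and 2, and 2 without any one of WT LSK replicates 2 and 3 and T2F3 LSK replicate 3. These 4 include Uhrf1, which guides maintenance methylation (0.69 ± 0.30, adjusted p = 0.519), and Idh2, an isocitrate dehydrogenase (0.65 ± 0.28, adjusted p = 0.515), both named after their values were seen. Of 47 interferon-stimulated genes 0 were higher and 2 lower, with a median of 0.03. Ifi203, a nucleic acid sensor, was an exception by level: it was at 183, 156 and 139 CPM in WT LSK against 138, 239.9 and 122 CPM in T2F3 LSK, and at 15.3, 26.9 and 40.1 CPM in WT GMP against 132, 195 and 101 CPM in T2F3 GMP. Only WT GMP stood apart, with a rise of 5.21-fold in GMP (adjusted p = 0.00961) and a difference of -2.32 ± 0.51 (adjusted p = 0.166). Gbp7, an interferon-induced GTPase, rose in both, 3.01-fold in LSK (adjusted p = 0.00507) and 4.97-fold in GMP (adjusted p = 0.00103), with a difference of -0.72 ± 0.35 (adjusted p = 0.544).

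Of 15 MHC class II genes 5 rose in LSK and 5 in GMP, beside 2.76% and 0.679% of all genes, and 0 were higher and 1 lower for the interaction. H2-Eb1, a class II beta chain, was at 37.4, 11.5 and 36.7 CPM in WT LSK against 1237, 1128 and 53.4 CPM in T2F3 LSK, and at 6.5, 1.95 and 5.18 CPM in WT GMP against 202, 536 and 128 CPM in T2F3 GMP. T2F3 LSK replicate 3 was far below the other two, and the difference of -1.18 ± 1.22 had a 95% interval from -4.0 to 1.64. Dendritic cell genes were mixed, 4 of 36 higher (7 without T2F3 LSK replicate 3) and 7 lower (3 without both WT replicate 1 libraries). Of 26 p53 target genes 3 were lower and 0 higher. Trp53inp1, a stress-induced p53 cofactor, fell 3.13-fold in LSK (adjusted p = 0.0294), from 60.5, 26.9 and 39.1 CPM to 10.5, 15.6 and 14.2 CPM, and was at 8.34, 4.04 and 6.69 CPM in WT GMP against 8.36, 13 and 13.9 CPM in T2F3 GMP. Its genotypes were apart in opposite directions, with a difference of -2.54 ± 0.54 (adjusted p = 0.161), and Sesn1, a p53 target of the stress response, had -1.19 ± 0.27 (adjusted p = 0.195).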

How the data were processed

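Per the labels' protocols, marrow without lineage-marked cells was sorted by flow cytometry and lysed in Trizol, and RNA freed of ribosomal RNA (RiboMinus) went into an Ion Torrent library kit. The submitters' processing notes name cutadapt 1.2rc2, BWA 0.5.9, TopHat2, HTSeq, Picard and the build mm9. The sources used here do not give the strand setting, so overlapping and antisense genes cannot be told apart. The authors deposited raw counts per gene for all libraries in 1 table, with no normalization. CPM and every test were computed here from those counts.

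Genes were kept by filterByExpr of edgeR 4.0.16 (minimum count 10), scaled by TMM and tested by its quasi-likelihood F-test under R 4.3.3. The 12 libraries entered with a mean for each group (8 residual degrees of freedom), and p-values were adjusted by Benjamini-Hochberg over all 16042 genes within each contrast. An adjusted p under 0.05 was called, and an SE is the log2 value divided by the square root of F. Alternatives, with limma 3.58.1 and DESeq2 1.42.0 among the tools, are given in the closing section. A count of 0 allows 3 counts, which is 0.112 to 0.228 CPM per library and, like the 95% intervals of ratios, covers counting error only. Within groups no 2 libraries agreed within sampling noise.

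LSK and GMP libraries share sample names (WT1, T2F3_1 and so on). Deviations from group means correlated across genes by 0.111, 0.112 and 0.161 for the 3 WT names and 0.359, 0.337 and 0.480 for the 3 T2F3 names, so the names were taken to pair the libraries, and the fit with the name as a replicate block is printed beside the results it changes.

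Data were simulated from these means and depths (15482 genes), with T2F3 LSK means replaced so that no interaction was present before changes were added. The ratio of the genotypes was capped, and changes were given only to genes with a mean of at least 5 CPM over the groups. Libraries were drawn without a shared effect of the sample name, so the replicate block could bring no gain there. The interaction test of edgeR recovered 0 of the 100 genes given a 2-fold difference and 29 of the 100 given a 4-fold one. Of its 33 calls, 4 fell on unchanged genes. With the replicate block it called 0 and 12, limma-voom called 0 and 19, and DESeq2 called 11 and 62, with 40 of 113 calls on unchanged genes.

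Named genes were Tet2, Flt3, Kit, Ly6a, Cd34 and Fcgr3, the called genes with at least 5 CPM in both populations filled to 10 per direction by smallest p, and up to 4 members per list by smallest p with at least 1 CPM. Others are marked where they appear. A gene that this rule takes is not reported here. The members, the 30 gene lists and the naming rule were chosen with earlier results of these data known.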

Additional observations from a re-analysis of the deposited data

Results flagged for a closer look

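The genotype effect differed between LSK and GMP by the test of the difference itself in 4 genes. The log2 difference between the effects was 4.62 for Mcpt8, 4.16 for Enah, 1.86 for Cers6 and 3.09 for Sema4a, with adjusted p-values of 0.0389, 0.0389, 0.047 and 0.047 in edgeR's quasi-likelihood test. In each of them, LSK minus GMP under a sample name was higher in all 3 T2F3 sample names than in all 3 WT ones. The same held in 11.1% of all genes. This separation uses the same libraries as the test and adds no support to it. No call held with the sample name as a replicate block (adjusted p = 0.0529, 0.0529, 0.0529 and 0.109).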

How the results depend on the processing

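The sizes held and the calls did not: the 4 called genes kept a positive difference in all 25 alternatives, whereas the number of calls ran from 0 to 191. The main numbers were 4 genes called, 1 of them opposed, 3 larger in LSK, 0 larger in GMP and 1 list member. Genes called numbered 7 with a filter of 5 CPM in 3 libraries, 0 with the sample name as a replicate block, 0 with the library code as a block, 23 by limma-voom, 191 by DESeq2, 0 by limma-trend and 10 with a covariate for the share of small noncoding RNA. Opposed genes among them numbered 3 with RLE scaling, 2 with reduced library sizes, 3 with no filter, 4 with the 5 CPM filter, 4 with the replicate number as a replicate block, 18 by limma-voom, 138 by DESeq2, 7 with the covariate and 0 with the sample name block, the code block and limma-trend. Genes with the larger effect in LSK numbered 33 by DESeq2 and 0 with the sample name block, the code block and limma-trend, and those with the larger effect in GMP numbered 2 by limma-voom and 20 by DESeq2. List members called numbered 2 with the replicate number block, 4 by limma-voom, 29 by DESeq2, 4 with the covariate and 0 with the sample name block, the code block and limma-trend. Without both WT replicate 1 libraries 1 gene was called, with 0 larger in LSK, and without both T2F3 replicate 1 libraries 0 were called in every class. Within a population, the main test called 834 genes in LSK and 183 in GMP. These counts were 18 and 39 with the code block, and 136 and 60 without both T2F3 replicate 1 libraries. DESeq2 called 1913 and 785. Rises and falls called within a population therefore also depend on the setting. The library code is the first part of each sample's description in the labels. T2F3 LSK replicates 1 and 3 shared a code (LEI), and no other group repeated one.

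Leaving out 1 library gave 0 to 10 genes called, 0 to 5 opposed, 0 to 3 larger in LSK, 0 to 2 larger in GMP and 0 to 3 list members. The cause of these changes was not tested. The difference for Tet2 (-0.02) turned positive with the code block (0.23), by limma-voom (0.10), without both WT replicate 1 libraries (0.10), without both T2F3 replicate 1 libraries (0.26) and in 7 of the settings that leave out 1 library, over all of which it ran from -0.49 to 0.17. That for Cd34 (0.16) was -0.10 by limma-voom and -3.93e-05 without both WT replicate 1 libraries. With 3 libraries per group the test found 29 of 100 simulated 4-fold differences between effects, in genes with a mean of at least 5 CPM. A gene that is not called is therefore not shown to respond alike.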

Other observations

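Genes for protein folding in the endoplasmic reticulum were prominent among the small p-values and are described here as a group written down after their values were seen, with no test of the group. Of 14 such genes, 13 had an unadjusted p under 0.05 with a positive difference between the effects and 0 with a negative one, with a range of 0.65 to 2.36 and a median of 1.31. The median log2 effect was 0.93 in LSK and -0.38 in GMP. In LSK 5 of the 14 rose, beside 2.76% of all genes, and in GMP 0 passed, beside 0.679% of all genes that rose and 0.461% that fell. These counts follow from how the genes were picked and are no evidence about the group.

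Calr, the gene of the chaperone calreticulin, was at 329, 508 and 518 CPM in WT LSK against 796, 688 and 870.3 CPM in T2F3 LSK, and at 1907, 2091 and 1903 CPM in WT GMP against 812, 920.4 and 1482 CPM in T2F3 GMP. The genotypes were apart in both populations, higher in T2F3 LSK and lower in T2F3 GMP, with a difference of 1.67 ± 0.40 (adjusted p = 0.212). P4hb, the gene of protein disulfide isomerase, rose 2.51-fold in LSK (adjusted p = 0.0269), with a difference of 1.64 ± 0.42 (adjusted p = 0.261), and Hsp90b1, the gene of the chaperone GRP94, rose 2.18-fold (adjusted p = 0.0171), with a difference of 1.23 ± 0.32 (adjusted p = 0.267). Hspa5, the gene of the chaperone BiP, was at 243, 219 and 185 CPM in WT LSK against 339, 325 and 297 CPM in T2F3 LSK, and at 515, 806 and 546 CPM in WT GMP against 446, 448 and 543 CPM in T2F3 GMP, with a difference of 0.95 ± 0.31 (adjusted p = 0.378). The count of 13 was 14 with the replicate block, 12 without both WT replicate 1 libraries, 10 without both T2F3 replicate 1 libraries and 11 to 13 when 1 library was left out.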
